A study of Bos taurus with 5 samples.

Results

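The genes of the cytosolic translation factors were followed across 5 RNA sequencing libraries from cattle (Bos taurus). They were chosen by name alone, as the symbols that begin with EIF or EEF followed by a digit, plus ETF1 and GSPT1, the release factors. The rule found 66 of the 27607 genes of the table, each under a symbol of its own. Tissue labels of the libraries name brain, skin, lung, heart and limb, with 1 library for each. Their labels name no breed, sex, age, treatment, cell number or animal number. Per the labels' protocols, the RNA of lysed cells was pre-amplified on a C1 microfluidic chip, a device for handling single cells. With no replicates, every difference below describes these 5 libraries and carries no error and no p-value.

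Protein synthesis begins when the initiation factor eIF2, charged with GTP and the initiator tRNA, joins the small ribosomal subunit together with eIF1, eIF1A, eIF3 and eIF5. The eIF4F complex (the cap-binding eIF4E, the scaffold eIF4G and the helicase eIF4A) brings this assembly to the capped end of an mRNA, which is scanned for a start codon. The elongation factor eEF1A then delivers aminoacyl-tRNAs, the eEF1B subunits recharge it with GTP, and eEF2 moves the ribosome along. The termination factors eRF1 (gene ETF1) and eRF3 (GSPT1) release the finished chain. Cells tune these steps through kinases that phosphorylate eIF2 alpha and through small proteins that bind eIF4E.

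The unit is not named and is read as FPKM (sequenced fragments per kilobase, scaled to the total of the library). Only on that reading can genes be compared per length. The libraries summed to 1072430 to 1172800 FPKM, and 5109 to 6634 genes were above 0 in each. The labels do not say which part of a transcript was read, and the part of this in the levels of long transcripts was not tested. The tissue labels were checked against 25 defining markers. The neuronal and glial genes SNAP25, SYT1, STMN2, RBFOX3 and GFAP were listed at 0 in all 5 libraries, and 0 of 5 lung markers were above 0 under the lung label. The library with the skin label had 1 of 4 markers above 0 (KRT10, 20.8 FPKM in all), the library with the heart label 1 of 5 (ACTC1, 5.21 FPKM) and the library with the limb label 2 of 6 (ACTA1 and TNNT1, 55.7 FPKM summed). Of the limb markers, only these 2 went with their label, and the rest were at 0 under it. All 6 summed to 0 to 1.57 FPKM under the other 4 labels. Under the limb label 1 of 5 heart markers was above 0, at 230.77 FPKM. Under the brain label 2 of 5 heart markers were, at 60.4 FPKM summed. Of the lung markers, 1 was above 0, under the limb label alone, at 34.2 FPKM. The skin markers summed to 18.9 to 58.4 FPKM under the other 4 labels. Except for ACTA1 and TNNT1, the markers did not go with the labels, and each library is called by its label only.

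Most translation factor genes were listed in every library. Of the 66, 57 were at 1 FPKM or more under the brain label, 50 under the skin, 53 under the lung, 55 under the heart and 50 under the limb label. In all 5 libraries 42 of the 66 were at 1 FPKM or more, and 36 were at 10 FPKM or more. Of all genes, 6318, 4868, 5707, 6394 and 5075 reached 1 FPKM under the brain, skin, lung, heart and limb labels. In all 5 libraries 2456 of all genes did. The counts of all genes were thus also lowest under the skin and limb labels. Together they took 1.46% of the summed FPKM under the brain label, 1.09% under the skin, 1.08% under the lung, 1.09% under the heart and 1.19% under the limb label. The genes listed at 0 in every library were EEF1A2, EIF4E1B, EIF4EBP3 and EIF4ENIF1. EEF1A2 is the elongation factor form known from adult muscle and neurons in mammals, and EIF4E1B is a cap-binding protein known from oocytes. EIF4EBP3 is a repressor of eIF4E, and EIF4ENIF1 carries eIF4E into the nucleus. EIF2AK3 also averaged below 1 FPKM, which left 61 genes that averaged 1 FPKM or more. Of these 61, 68.9% were above 0 in all 5 libraries, against 29.99% of all genes averaging 1 FPKM or more. All genes are not matched to the 61 by level in these shares.

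**Figure D1:**
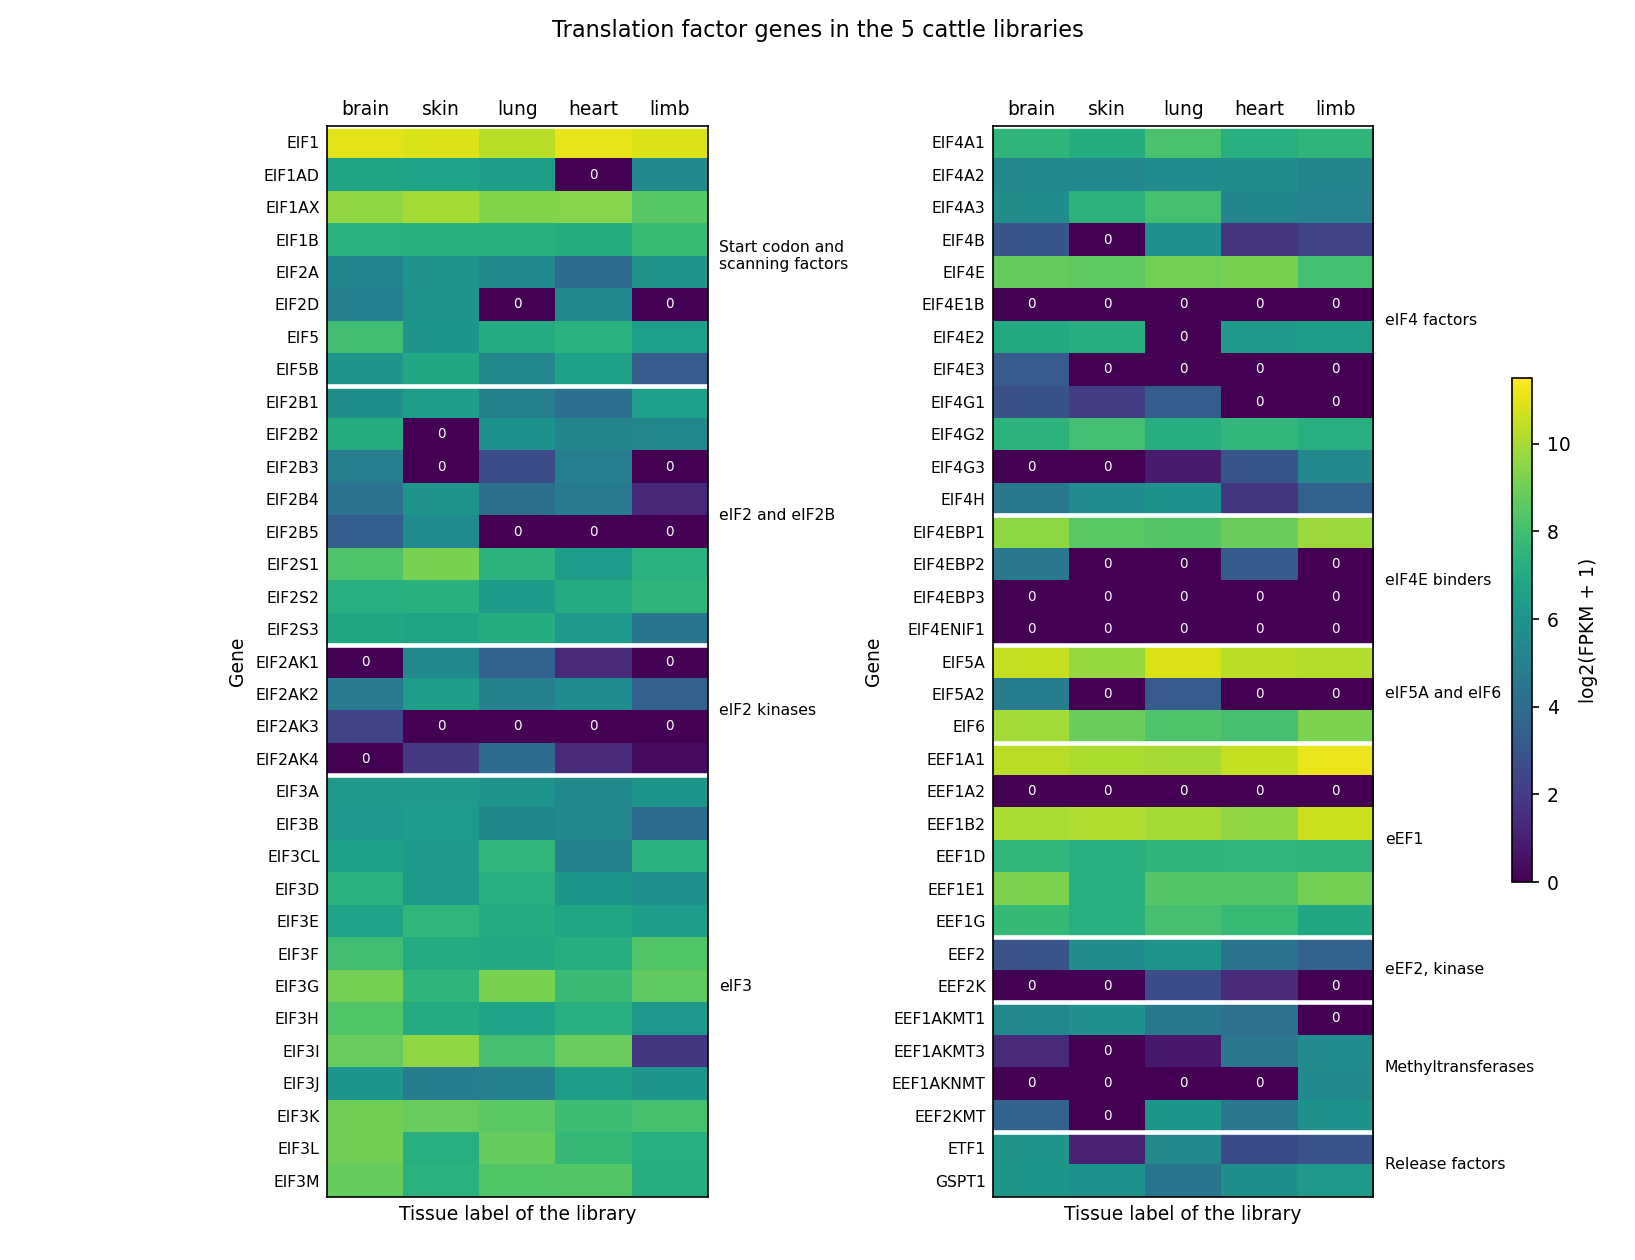
Levels of the 66 genes (rows, grouped by role) in the 5 libraries (columns, by tissue label), as colour on the log2(FPKM + 1) scale, with a 0 written where a gene was listed at 0. EIF1, EIF5A, EEF1A1 and EEF1B2 are bright in all 5 columns, while EEF1A2, EIF4E1B, EIF4EBP3 and EIF4ENIF1 are at 0 throughout.

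The most abundant of these genes was EIF1, which guards the choice of start codon. EIF1 stood at 2024 FPKM under the brain, 1829 under the skin, 1223 under the lung, 2124 under the heart and 1929 FPKM under the limb label. Its mean ranked 113th of all genes in the table, and its highest value was 1.74 times its lowest. EIF1AX, whose product eIF1A works beside eIF1 on the small subunit, stood at 770.1, 977, 653, 688 and 364 FPKM under the brain, skin, lung, heart and limb labels. EIF1 was above EIF1AX in all 5 libraries, by 1.87 to 5.30 times.

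Other factors of start codon choice and subunit joining had lower means. EIF1B, a close relative of EIF1, stood at 161, 157, 154, 136 and 223 FPKM under the brain, skin, lung, heart and limb labels, so that EIF1 made up 88.8% to 94.0% of the pair. EIF5, which triggers GTP hydrolysis by eIF2, ranged from 63.9 FPKM under the skin to 251 FPKM under the brain label. EIF5B, the GTPase that joins the large subunit, stood at 8.79 FPKM under the limb label, against 63.0, 119, 38.8 and 95.8 FPKM under the brain, skin, lung and heart labels. EIF5B was thus low under the limb label only. EIF1AD, a nuclear protein with an eIF1A-like domain, was listed at 0 under the heart label, against 104, 100.1, 85.1 and 43.4 FPKM under the brain, skin, lung and limb labels. EIF2A and EIF2D, which can deliver initiator tRNA outside the eIF2 route, differed in their detection. EIF2A was listed in every library, at 15.05 to 62.9 FPKM. EIF2D was listed at 0 under the lung and limb labels and at 29.8 to 60.6 FPKM in the other 3.

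The eIF2 trimer was listed in every library, but its subunits did not keep 1 order. EIF2S1, the alpha subunit that the stress kinases phosphorylate, stood at 319, 587, 171, 79.5 and 162 FPKM under the brain, skin, lung, heart and limb labels. It was highest under the skin label, at 7.38 times its lowest value, under the heart label. EIF2S2, the beta subunit, was steadier, at 152, 157, 77.0, 135 and 183 FPKM in the same order. EIF2S3, the gamma subunit that binds GTP and the tRNA, stood at 118, 105, 137, 71.0 and 21.05 FPKM. The ratio of EIF2S1 to EIF2S3 was 1.12 under the heart and 1.25 under the lung label, 2.71 under the brain, 5.58 under the skin and 7.715 under the limb label.

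The eIF2B complex, which exchanges GDP for GTP on eIF2, was lower than eIF2 and often incomplete in the table. The sum of its 5 subunit genes was 252, 188, 111, 108 and 131 FPKM under the brain, skin, lung, heart and limb labels. All 5 subunits were above 0 under the brain label only, 4 under the lung and heart labels and 3 under the skin and limb labels. EIF2B1 (alpha) was listed in all 5, at 17.25 to 89.5 FPKM. EIF2B2 (beta) was listed at 0 under the skin label, against 139.6, 56.8, 36.9 and 39.6 FPKM under the brain, lung, heart and limb labels. EIF2B3 (gamma) was at 0 under the skin and limb labels and at 5.28 to 29.5 FPKM in the other 3. EIF2B2 and EIF2B3 were thus both listed at 0 under the skin label. EIF2B4 (delta) stood at 1.44 FPKM under the limb label, against 19.97, 60.4, 18.0 and 24.6 FPKM under the brain, skin, lung and heart labels. EIF2B5 (epsilon, the catalytic subunit) stood at 45.3 FPKM under the skin label, against 9.89 FPKM under the brain label and 0 in the other 3. Of all values in the table whose other 4 libraries averaged 10 to 30 FPKM, 39.1% were listed at 0, so a 0 for a subunit at that level, such as EIF2B3, does not show that it was absent. By the same measure EIF2B2 falls between 30 and 100 FPKM, where 18.4% of values were listed at 0. A stricter measure takes the lowest of the other 4 libraries and the skin label alone. By it, 51 of the 1348 genes at or above 36.91 FPKM, EIF2B2 among them, were at 0. The 2 measures are not alike.

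Of the 4 kinases that phosphorylate eIF2 alpha, EIF2AK2 (PKR, activated by double-stranded RNA) was the only one above 0 in all 5 libraries. It stood at 26.3, 86.65, 31.1, 47.6 and 10.6 FPKM under the brain, skin, lung, heart and limb labels. EIF2AK1 (HRI, the haem-regulated kinase) was at 42.5 FPKM under the skin label, 11.0 under the lung and 1.58 FPKM under the heart label, and at 0 under the brain and limb labels. Both kinases were highest under the skin label. EIF2AK4 (GCN2, the sensor of uncharged tRNA) stood at 15.5 FPKM under the lung label, against 0, 2.75, 1.7 and 0.26 FPKM under the brain, skin, heart and limb labels. EIF2AK3 (PERK, the sensor in the endoplasmic reticulum) was listed only under the brain label, at 3.91 FPKM. The 4 kinases summed to 30.2, 132, 57.6, 50.9 and 10.8 FPKM under the brain, skin, lung, heart and limb labels, so that the sum was lowest under the limb label.

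**Figure D2:**
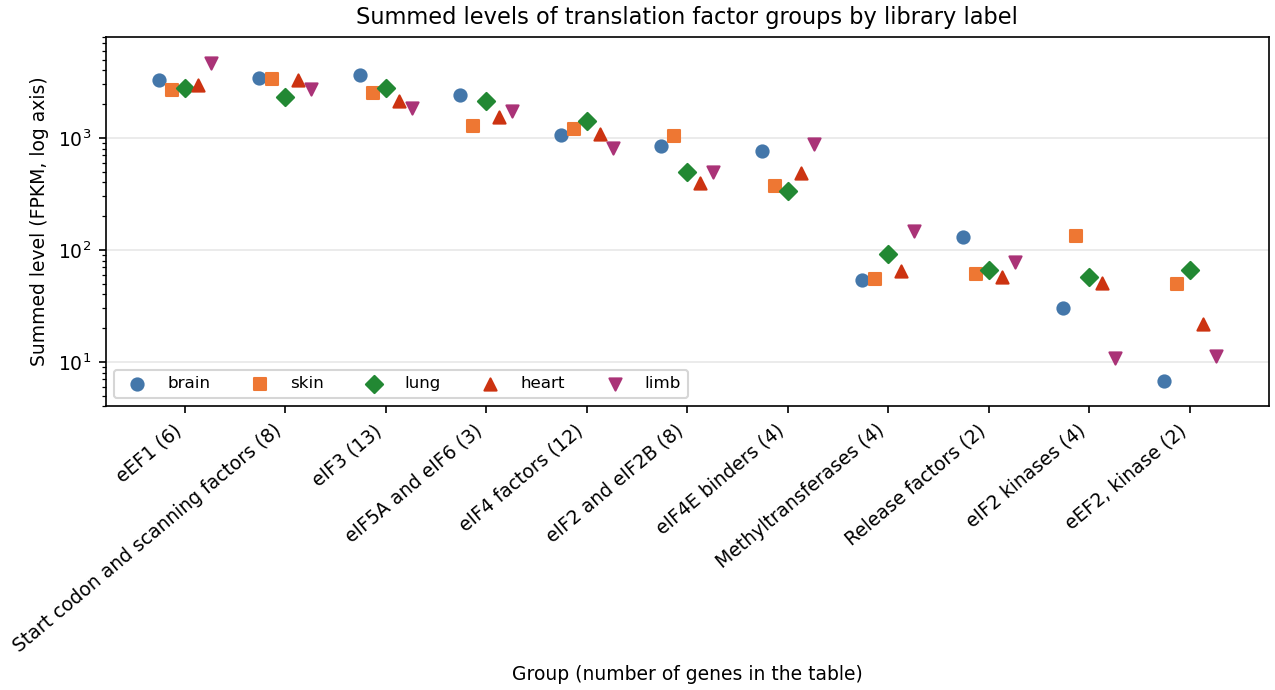
Summed FPKM (log axis) of the genes of each role group, with 1 point per library label and the number of genes in the table in brackets. The eEF1, start codon, eIF3 and eIF5A groups are the highest, and the eIF2 kinases run from 10.8 FPKM under the limb to 132 FPKM under the skin label.

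All 13 entries of eIF3, the large scaffold that holds the small subunit and the mRNA, were above 0 in all 5 libraries. Subunit c is represented by EIF3CL, a symbol for which the RefSeq gene table gives EIF3C as a synonym. The subunit genes summed to 3629 FPKM under the brain label, 2496 under the skin, 2817 under the lung, 2134 under the heart and 1833 FPKM under the limb label. The library with the brain label held the highest value for 6 of the 13 and the lowest for 0, and the library with the limb label held the lowest for 6. Over all 61 genes averaging 1 FPKM or more, the highest value was under the brain label for 17, where 19.5% of all genes had theirs. Under the heart label it was for 4, where 18.6% of all genes had theirs. It was for 14 under the skin label (19.8% of all genes), 14 under the lung (24.1%) and 12 under the limb label (18.0%). The lowest value of the 61, ties included, was under the limb label for 25 and under the brain label for 6. The share of all genes with their lowest value in each library was not computed, so the counts of lowest values have no background.

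The subunits of eIF3 differed in level within every library. By mean, EIF3I (391 FPKM), EIF3G (389.7 FPKM) and EIF3K (374 FPKM) were the highest and EIF3B (48.8 FPKM) the lowest, an 8.01-fold span. EIF3K, at the edge of the octamer core, stood at 516, 458, 371, 243 and 283 FPKM under the brain, skin, lung, heart and limb labels. EIF3A, the largest subunit and the backbone of the complex, was the steadiest, at 73.5, 70.9, 60.4, 43.7 and 64.8 FPKM. EIF3J, the loosely bound subunit, ranged from 28.5 FPKM under the skin to 84.3 FPKM under the heart label. The 8 genes of the octamer core (subunits a, c, e, f, h, k, l and m) summed to 2322, 1365, 1742, 1266 and 1283 FPKM under the brain, skin, lung, heart and limb labels. The genes of subunits b, g and i summed to 1077, 1029, 891, 717 and 432 FPKM in the same order. Under the limb label the octamer sum was thus close to those under the heart and skin labels, and the sum of the b, g and i genes was the lowest of the 5.

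That lowest sum turned on EIF3I, a WD-repeat protein of the b-g-i module. EIF3I stood at 2.49 FPKM under the limb label, against 458, 766, 276 and 451 FPKM under the brain, skin, lung and heart labels. Without EIF3I, the other 12 eIF3 genes summed to 1831 FPKM under the limb label, above 1730 under the skin and 1683 FPKM under the heart label. The value under the limb label was 79.3 times below the nearest of the other 4 after adding 1. Of the 430 genes at or above 275.68 FPKM in each of the other 4 libraries, 3 (0.698%) were 4-fold lower under the limb label. At or below 2.49 FPKM there were 2, EIF3I among them. The cut-off is EIF3I's own lowest value in the other 4, and EIF3I is in these counts, so they only describe it. Of all genes averaging 100 FPKM or more, 2.58% were low under the limb label by the rule given below. EIF3B was also lowest under the limb label, at 15.7 FPKM, against 68.3, 81.1, 37.4 and 41.4 FPKM under the brain, skin, lung and heart labels. EIF3G, the third gene of this module, was not low there, at 413 FPKM, against 551, 181, 578 and 224 FPKM in the same order.

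**Figure D3:**
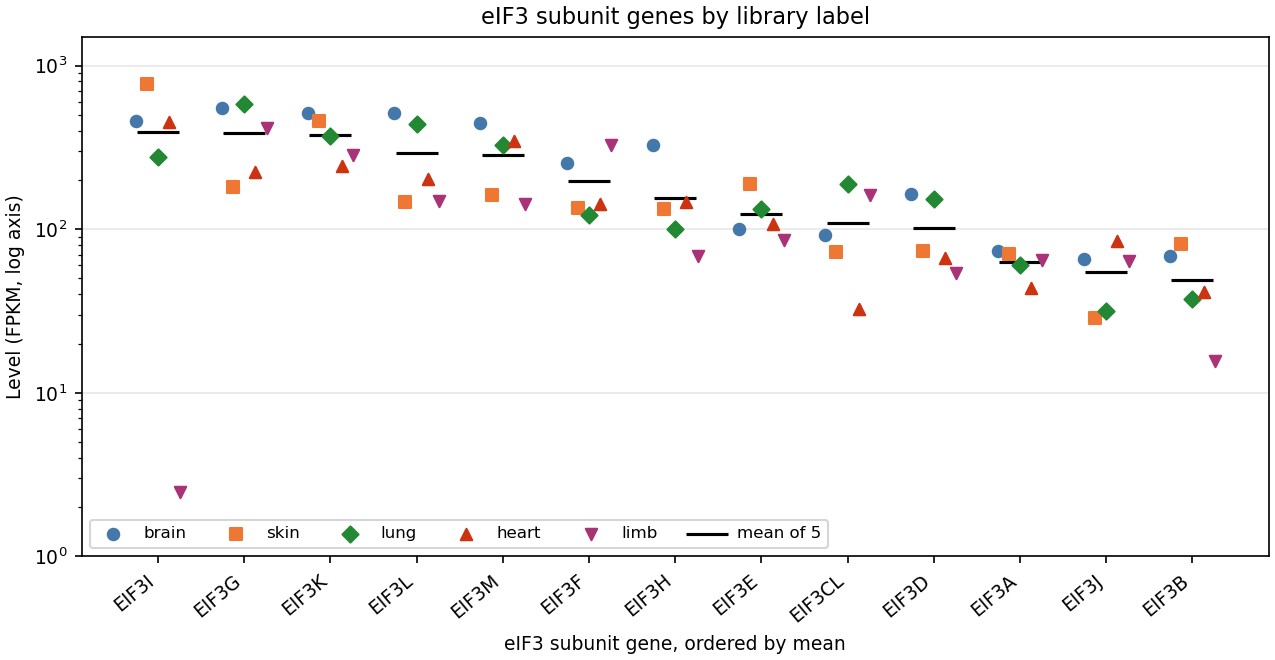
Levels of the 13 eIF3 subunit genes (FPKM, log axis), ordered by mean, with 1 point per library label and a bar at the mean of the 5. The point for EIF3I under the limb label lies at 2.49 FPKM, apart from all other points, which run from 15.7 to 766 FPKM.

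Cap recognition was led by EIF4E, at 439, 396, 535, 568 and 269 FPKM under the brain, skin, lung, heart and limb labels. EIF4E2, a related cap-binding protein linked to repression, was listed at 0 under the lung label, against 126, 144, 73.9 and 86.3 FPKM under the brain, skin, heart and limb labels. Of the 945 genes at or above 73.86 FPKM in each of the other 4 libraries, 5 were listed at 0 under the lung label. That cut-off is EIF4E2's own lowest value there, and EIF4E2 is among the 5. EIF4E3 was listed only under the brain label, at 8.99 FPKM. EIF4EBP1, the repressor that mTOR signalling releases from eIF4E, stood at 741, 374, 338, 474 and 883 FPKM under the brain, skin, lung, heart and limb labels. Its ratio to EIF4E was 3.28 under the limb and 1.69 under the brain label, and 0.945, 0.632 and 0.834 under the skin, lung and heart labels. EIF4EBP2 was listed at 23.25 FPKM under the brain and 8.6 FPKM under the heart label and at 0 in the other 3, so that EIF4EBP1 made up 97.0% to 100% of the pair.

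Among the scaffolds, EIF4G2 was the highest in every library. EIF4G1, the main eIF4F scaffold, was at 6.31, 3.3 and 9.32 FPKM under the brain, skin and lung labels and at 0 under the heart and limb labels. EIF4G2 (DAP5), a shorter relative that does not bind eIF4E, stood at 173, 264, 142, 197 and 149 FPKM under the brain, skin, lung, heart and limb labels. EIF4G1 was at most 6.16% of the sum of these 2 genes. EIF4G3 stood at 41.5 FPKM under the limb label, against 0, 0, 0.86 and 7.4 FPKM under the brain, skin, lung and heart labels. EIF4G2 was thus above EIF4G1 in all 5 libraries, and EIF4G3 was above EIF4G1 under the heart and limb labels.

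The helicase genes were present throughout. EIF4A1 stood at 180.4, 138, 296, 147 and 181 FPKM under the brain, skin, lung, heart and limb labels. EIF4A2, a near-identical helicase, was among the most even genes of the set, at 39.3, 39.9, 47.0, 50.25 and 36.85 FPKM. EIF4A1 made up 74.5% to 86.3% of the pair, and since their sequences are alike, reads may have been split between them. EIF4A3, which belongs to the exon junction complex and not to eIF4F, was uneven, at 48.1, 169, 279, 37.7 and 32.9 FPKM. Its highest values were under the lung and skin labels. EIF4B, a cofactor of the helicase, stood at 55.0 FPKM under the lung label, against 7.5, 0, 2.31 and 3.9 FPKM under the brain, skin, heart and limb labels. EIF4H, a second cofactor, was also highest under the lung label, at 59.8 FPKM, and lowest under the heart label, at 2.48 FPKM.

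EIF5A, which carries the amino acid hypusine and helps the ribosome through difficult sequences, stood at 1435, 815, 1823, 1271 and 1149 FPKM under the brain, skin, lung, heart and limb labels. Its relative EIF5A2 was at 27.3 FPKM under the brain and 8.99 FPKM under the lung label and at 0 in the other 3. EIF5A therefore made up 98.1% to 100% of the pair. EIF6, which keeps the large subunit from joining too early, stood at 963, 461, 319, 272 and 599 FPKM in the same order, highest under the brain label.

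Among elongation factors, the eEF1 genes were high and the eEF2 gene low. EEF1A1 stood at 1259, 1087, 1012, 1450.0 and 2283 FPKM under the brain, skin, lung, heart and limb labels, and EEF1A2 was listed at 0 in all 5. EEF1B2, the exchange subunit, stood at 1045, 1120.4, 974, 775 and 1548 FPKM. Both were highest under the limb label. EEF1D, the other exchange subunit, was the most even gene of those above 0, at 197, 152, 186, 190.0 and 179 FPKM, a span of 1.30 times. EEF1G, the structural subunit, stood at 205, 151, 275, 213 and 116 FPKM. The ratio of EEF1B2 to EEF1G was 13.3 under the limb label and 3.54 to 7.40 in the other 4. EEF1E1, which despite its symbol belongs to the complex of tRNA synthetases, stood at 603, 146, 341, 338 and 539 FPKM, lowest under the skin label. EEF1A1 has many processed copies in mammalian genomes, so its value is uncertain where reads were shared with them.

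EEF2, the translocase, stood at 6.81, 49.2, 61.0, 20.3 and 11.2 FPKM under the brain, skin, lung, heart and limb labels. It was highest under the lung label, followed by the skin label, and lowest under the brain label. The ratio of EEF1A1 to EEF2 ran from 16.6 under the lung to 204 under the limb label. EEF2K, the kinase that turns eEF2 off, was listed at 5.09 FPKM under the lung and 1.56 FPKM under the heart label and at 0 in the other 3.

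The methyltransferases that modify elongation factors were low, and 0 of their 4 entries were above 0 in all 5 libraries. EEF1AKMT1 was listed at 0 under the limb label, against 39.9, 55.1, 23.9 and 19.3 FPKM under the brain, skin, lung and heart labels. EEF1AKNMT (METTL13) was at 42.6 FPKM under the limb label and at 0 in the other 4. These 2 enzymes of eEF1A were thus listed in opposite libraries. EEF1AKMT3 was at 46.2 FPKM under the limb and 22.7 FPKM under the heart label, and at 1.67, 0 and 0.72 FPKM under the brain, skin and lung labels. EEF2KMT was listed at 0 under the skin label, against 11.8, 66.6, 22.9 and 57.4 FPKM under the brain, lung, heart and limb labels. The 4 genes summed to 146 FPKM under the limb label and to 53.4 to 91.2 FPKM in the other 4.

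The release factor genes were above 0 in all 5 libraries, but ETF1, which reads the stop codon, varied far more than its partner. ETF1 stood at 63.45, 1.18, 44.8, 5.02 and 6.78 FPKM under the brain, skin, lung, heart and limb labels. GSPT1, the GTPase of the pair, stood at 66.2, 59.5, 21.05, 52.2 and 71.9 FPKM. The ratio of GSPT1 to ETF1 was 1.04 under the brain, 50.4 under the skin, 0.470 under the lung, 10.4 under the heart and 10.6 under the limb label. GSPT2, a retrogene relative of GSPT1, was listed only under the heart label, at 9.41 FPKM.

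Each library was then set against the other 4. After 1 was added to every value, a gene of 10 FPKM or more was called high where it exceeded each of the others by 4 times or more. It was called low where each of the others had 10 FPKM or more and exceeded it by 4 times or more. Under the brain label 0 of the 61 genes were called high, against a background of 3.93% of the 8694 genes averaging 1 FPKM or more, and 0 were called low (background 0.61%). Under the skin label EIF2B5 was called high (background 3.91%) and EIF2B2 and EEF2KMT low (background 3.13%). Under the lung label EIF4B and EIF2AK4 were called high (background 5.08%) and EIF4E2 low (background 2.17%). Under the heart label 0 were called high (background 4.23%) and EIF1AD low (background 0.966%). Under the limb label EEF1AKNMT and EIF4G3 were called high (background 3.61%), and EIF3I, EIF5B, EIF2B4 and EEF1AKMT1 were called low (background 2.74%).

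Summed over the libraries, 5 genes were called high, where 20.8% of all genes averaging 1 FPKM or more were, and 8 were called low, where 9.62% were. Together 13 of 61 (21.3%) were called in either direction, against 30.2% of all genes. The low calls, at 8 of 61, did not fall below the share of all genes, while the high calls, at 5 of 61, did. These shares are not matched by level: the 61 genes had a median mean of 66.5 FPKM, against 13.9 FPKM over all 8694. Of the 1358 genes averaging 100 FPKM or more, 1.55% were called high and 10.8% low. Abundance thus moves with the share of high calls, while the share of low calls hardly changed. Among the 28 of the 61 at that level, 0 were called high and 1, EIF3I, was called low (3.57%). In either direction 12.2% of the 1358 genes were called. Leaving the library with the lung or the heart label out of the comparison gave 8 high calls each. With a pseudocount of 10 in place of 1, the calls of EEF1AKMT1, EEF2KMT, EIF2AK4, EIF2B4, EIF2B5, EIF4B, EIF4G3 and EIF5B were lost, which left 1 high and 4 low calls. The call of EIF5B was also lost when the libraries were rescaled by their median ratio.

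**Figure D4:**
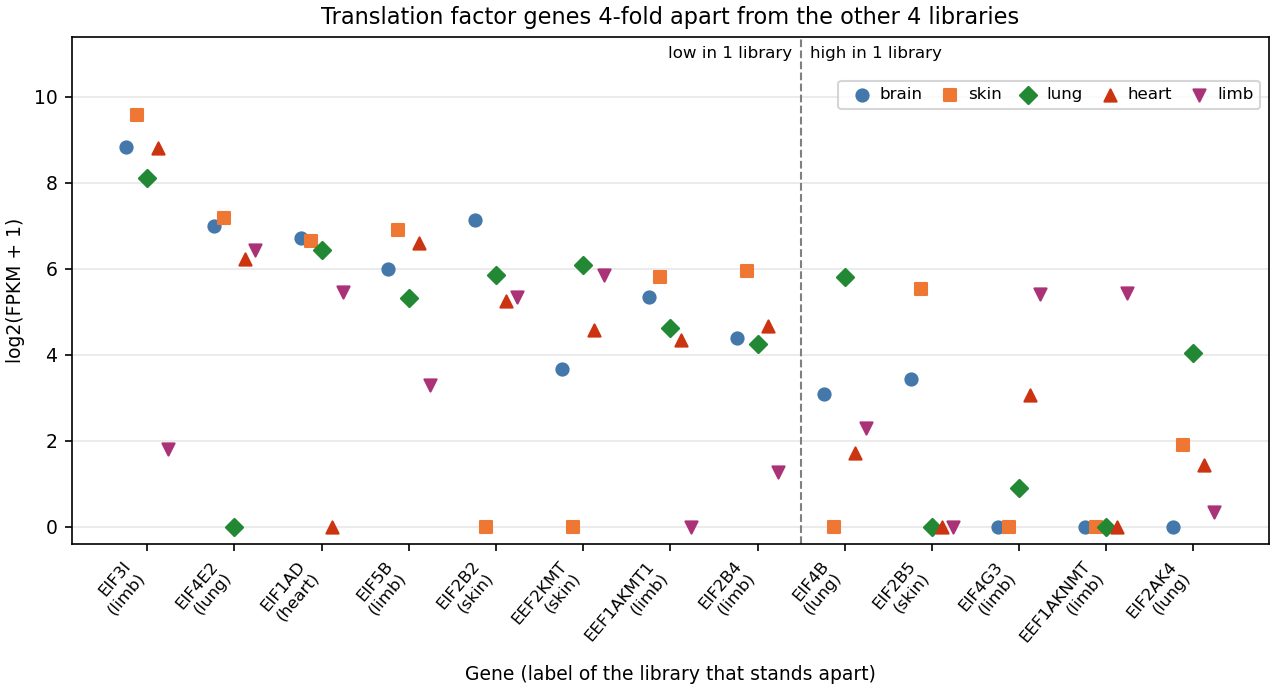
Levels, as log2(FPKM + 1), of the 13 genes that stood 4-fold apart in 1 library, named in brackets, with 1 point per library label. The 8 genes left of the dashed line were low in the named library and the 5 right of it were high; EIF3I under the limb label shows the widest gap.

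Zeros were read against all genes of like level. Where the mean of the other 4 libraries lay between 30 and 100 FPKM, 6 of 82 values of translation factor genes (7.32%) were listed at 0, against 18.4% over all genes. Between 100 and 300 FPKM it was 1 of 71 (1.41%), against 5.78%, and at 300 FPKM or more 0 of 65, against 1.48%. Between 10 and 30 FPKM, 15 of 49 (30.6%) were at 0, against 39.1% over all genes. The values of 1 gene in several libraries, and of 5 libraries that serve in turn as each other's reference, are not independent, so these shares are descriptions. A 0 was thus common in this table between 10 and 30 FPKM and less so from 100 FPKM upwards.

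**Figure D5:**
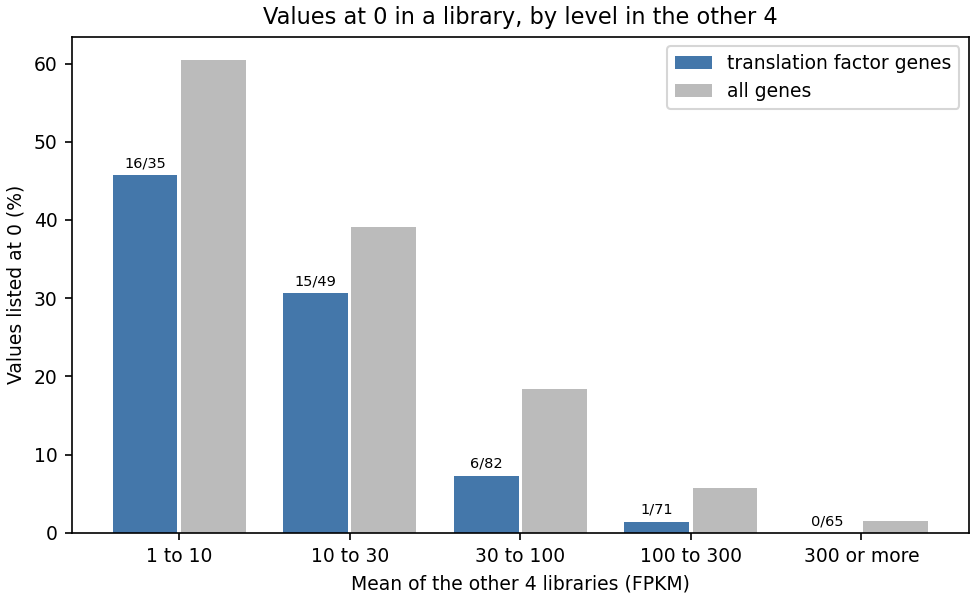
Share of values listed at 0 in a library (%), by the mean of the other 4 libraries, for translation factor genes (left bars, with counts) and all genes (right bars). Both fall with level, and the left bar is below the right one in each of the 5 classes.

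The direction of the set as a whole differed between libraries. The median over the 61 genes of log2(FPKM + 1) minus its mean in the other 4 was 0.47 under the brain label, against 0.15 over all 8694 genes. It was -0.04 under the skin label, against -0.73 over all genes, and 0.13 under the lung label, against -0.16. Under the heart label it was -0.08, against -0.01, and under the limb label -0.47, against -0.67. All genes are not matched to the 61 by level here. Under the skin label 18.0% of the 61 were at 0, against 43.6% of all genes, and under the limb label 16.4%, against 41.3%. The part of level in these gaps was not tested. Under the brain label 43 of the 61 (70.5%) lay above the mean of the other 4, against 52.9% of all genes. Under the limb label 23 (37.7%) did, close to the 40.6% of all genes. These medians are not separate observations, since each library is part of the others' reference. With the limb label left out, the median was 0.35 under the brain label and 0 under the lung label. With the brain label left out, it was -0.30 under the limb label and 0.070 under the heart label, above zero. A library with fewer cells of a kind and one with less of an RNA per cell cannot be told apart in such values.

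Pairs of libraries were compared by the same 4-fold rule, over the 61 genes and beside the share of all genes past it. For brain against heart, 5 of the 61 differed (8.20%, background 24.5%). On the log2(FPKM + 1) scale, the values of all 61 correlated at a Pearson r of 0.84. EIF1AD, EIF4H, EIF5A2 and ETF1 were higher under the brain label (background 12.8%) and EEF1AKMT3 under the heart label (background 11.7%). For skin against limb, 18 differed (29.5%, background 32.5%), with an r of 0.65. Both correlations are across the 61 genes, measured in shared libraries, and are descriptions. No correlation over all genes is given, so they have no background. Of these 18, 13 were higher under the skin label (background 15.9%), among them EIF2S3, EIF3B, EIF3I, EIF5B, EEF2, EIF4A3 and EIF4H. The 5 higher under the limb label (background 16.6%) were EEF1AKMT3, EEF1AKNMT, EEF2KMT, EIF2B2 and EIF4G3.

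The other 8 pairs lay between. For brain against skin 10 differed (background 31.8%), for brain against lung also 10 (31.1%) and for brain against limb 16 (29.4%). For skin against lung 8 differed (background 32.5%) and for skin against heart 11 (32.6%). For lung against heart 12 differed (background 32.4%), for lung against limb 16 (34.2%) and for heart against limb 12 (29.4%). Among the 28 genes averaging 100 FPKM or more, 0 to 2 differed in a pair, and EIF3I, EIF3H, EIF3CL, EIF4A3, EIF2S1 and EEF1E1 were the genes concerned. In the same pairs 7.14% to 16.3% of all genes of that level differed.

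Of 26 further cytosolic factors, 24 averaged 1 FPKM or more and 7 were called in a library, near the 30.2% of all genes. TPT1, a protein whose mRNA is regulated like those of the elongation factors, was the most abundant, at 681, 645, 673, 963 and 1255 FPKM under the brain, skin, lung, heart and limb labels. MCTS1 and DENR form a pair that recycles the small subunit and supports re-initiation. MCTS1 was listed at 76.0 FPKM under the brain label and at 0 in the other 4. DENR was listed in all 5, at 143 FPKM under the brain label and at 28.8 to 74.8 FPKM in the others. The enzymes that make hypusine on eIF5A were each called once. DHPS, the first of them, was listed at 0 under the limb label, against 17.6 to 62.0 FPKM in the other 4, and DOHH, the second, was listed only under the lung label, at 42.3 FPKM. PAIP1, which links the poly(A)-binding protein to eIF4A, was at 5.68 FPKM under the skin label, against 96.7 to 229 FPKM in the other 4. PABPC4, a poly(A)-binding protein, was at 0 under the skin label, against 21.4 to 97.4 FPKM. DPH6, which acts in making diphthamide on eEF2, was at 0 under the lung label, against 13.3 to 75.9 FPKM. HBS1L, a rescue factor for stalled ribosomes, was at 0 under the lung label, against 14.1 to 138 FPKM.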

How the data were processed

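RNA sequencing values of 5 cattle libraries, 1 per tissue label, were analysed. Per the submitters' processing notes, bcl2fastq, STAR (alignment) and RSEM (quantification) were used with the ARS-UCD1.2 build; tool versions, the annotation and any filters are not stated there. The unit is not named, and the deposited values were taken as FPKM. Of values above 0, 98.7% to 99.1% were not whole, and the library sums differed and exceeded the fixed total of TPM. Estimated counts from RSEM, which need not be whole, were not tested as an alternative. Comparisons between genes rest on the reading as FPKM. No values named as counts were given, so depth is unknown and no interval is printed.

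Members were found by symbol, and the roles, lists, size rules and alternatives were chosen with earlier results of these data known. Genes called in a library, paralog pairs and, in each role group, the gene with the highest mean and the one with the widest range are named with all values. GSPT2 and the marker genes come from lists fixed with them. The octamer and b-g-i split of eIF3 was chosen after values were seen, as were the other genes named outside these rules. A pseudocount of 1 was added before ratios and log2, which understates ratios of low genes. No test, SD or p-value was computed, and no sequences are shown. Of the 66 symbols, 65 were in the RefSeq gene table of a later assembly, used for names only. Python 3.11.15 with pandas 2.3.3 was used. The rules were checked on simulated data with little scatter and without the scattered zeros of this table, so their rate of false calls here is unknown.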

Additional observations from a re-analysis of the deposited data

How the results depend on the processing

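With 1 library per label there is no replicate to leave out. No paired analysis was possible because each label has 1 library. The 5 high calls became 1 with a pseudocount of 10, 29 against the mean of the other 4, and 8 each without the libraries with the lung or heart labels as reference. The 8 low calls became 5 at a minimum of 20 FPKM, 4 with a pseudocount of 10 and 13 against the mean of the other 4. The 118 calls summed over the 10 pairs became 64 with a pseudocount of 10. EIF3I, EIF4E2, EIF1AD, EIF2B2 and EEF1AKNMT kept their calls under all 10 settings run for each of them. The median difference under the brain label (0.47) was 0.28 with a pseudocount of 10, 0.24 against the median of the other 4 and 0.35 without the limb label. Under the lung label (0.13) it was 0.027 with no filter, and 0 both against the median of the other 4 and without the limb label. Under the heart label (-0.08) it was -0.22 against the median of the other 4, 0.093 after rescaling by the median ratio, 0.070 without the brain label and -0.18 without the limb label. Under the limb label (-0.47) it was -0.36 at a mean of at least 10 FPKM, -0.30 without the brain label and -0.67 without the heart label. Why these moved was not tested. The median under the skin label moved by less than 0.1, and detection counts and shares of summed FPKM by less than 1.5 times, under the alternatives run. Depth is unknown, and what it limits was not tested.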

Other observations

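The factors of mitochondrial translation form a separate system of bacterial type. Of 9 entries, 3 were above 0 in all 5 libraries. TUFM, the mitochondrial elongation factor, had the highest mean, though not the highest value under the brain, lung and limb labels. It stood at 55.4, 230.5, 73.0, 59.7 and 72.3 FPKM under the brain, skin, lung, heart and limb labels. TSFM, its exchange factor, was listed at 0 under the limb label, against 96.5, 70.5, 206 and 59.5 FPKM under the brain, skin, lung and heart labels. MRRF, the ribosome recycling factor, was listed at 0 under the lung label, against 61.5, 121, 27.0 and 81.6 FPKM under the brain, skin, heart and limb labels. Called genes were 2 of 9, against 30.2% of all genes averaging 1 FPKM or more.

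Of 12 genes for kinases and phosphatases that act on translation factors, 3 were above 0 in all 5 libraries, all of them catalytic subunits of protein phosphatase 1. PPP1CA stood at 563, 266, 316, 277 and 182 FPKM under the brain, skin, lung, heart and limb labels. PPP1R15A (GADD34), the stress-induced subunit that directs this phosphatase to eIF2 alpha, was listed only under the skin label, at 43.2 FPKM. MTOR was at 14.5 FPKM under the skin label, against 0.24, 0, 0 and 0.44 FPKM under the brain, lung, heart and limb labels. PPP1CB was at 9.85 FPKM under the limb label, against 52.2 to 152 FPKM in the other 4. The called genes PPP1R15A, MTOR and PPP1CB were 3 of 11 averaging 1 FPKM or more, near the 30.2% of all genes.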
